A study of Mus musculus with 12 samples.

Results

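The 36 genes described here are the mouse glutathione transferases together with well-known targets and regulators of the transcription factor NRF2, measured in liver by RNA sequencing. They were taken by symbol from the deposited tables: every Gst gene of a lettered class, every Mgst gene, and 13 named genes (Nqo1, Gclc, Gclm, Gsr, Hmox1, Srxn1, Txnrd1, Nfe2l2, Keap1, Ephx1, Gpx2, Cbr3 and Ugdh), each with at least 10 reads summed over the 12 libraries. The rule gave 36 of 22609 genes, of which 23 were transferases (20 Gst and 3 Mgst genes). A further matching symbol, Gstt4, fell short of 10 reads. The 12 livers were those of adult mice of 4 genotypes, 3 mice each and all untreated, bred by crossing heterozygous Alb/AEG-1 with heterozygous Alb/c-Myc mice. AEG1_MYC mice carried both transgenes, AEG1 mice carried Alb/AEG-1 alone, MYC mice carried Alb/c-Myc alone and WT mice carried neither. In Alb lines the albumin promoter drives the transgene in hepatocytes, while the RNA here was that of whole liver. AEG-1 is the protein of the gene Mtdh, c-Myc promotes cell growth as a transcription factor, and the study asked how the pair act together in liver tumour formation.

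Glutathione transferases join the thiol of glutathione to reactive electrophiles, which makes them easier to excrete. The cytosolic enzymes fall into classes by sequence (alpha, mu, pi, theta, zeta, omega), Gstk1 is mitochondrial and peroxisomal, and the Mgst proteins sit in membranes. NRF2, encoded by Nfe2l2, is held in the cytoplasm and marked for degradation by KEAP1. When oxidants or electrophiles modify KEAP1, NRF2 enters the nucleus, pairs with a small MAF protein and binds antioxidant response elements near genes of glutathione synthesis, quinone reduction and many transferases. In liver, several enzymes of foreign compound metabolism are more abundant in hepatocytes around the central vein (pericentral) than around the portal vein (periportal).

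Each library held 21931197 to 40552316 reads in genes. Of the 36 members, 33 passed the filter on low counts and were tested with 13684 genes in all, while Gpx2, Gsto2 and Mgst2 did not. Levels are given as CPM, the usual read counts scaled to each library's TMM-adjusted total over tested genes, and differences as log2 fold changes ± SE with edgeR's Benjamini-Hochberg adjusted p over the 13684 genes. Genes with an adjusted p under 0.05 are called changed. Myc stood at 73.0, 165 and 58.4 CPM in AEG1_MYC and 23.4, 30.5 and 53.8 CPM in MYC livers, against 3.54 to 4.59 CPM in AEG1 and 2.26 to 4.73 CPM in WT livers. Mouse Mtdh lay between 88.9 and 112 CPM in every library. The sources used here do not give the species of the AEG-1 transgene, so its counts check no label. Summed CPM of 7 hepatocyte markers was 57209, 34758 and 73138 in AEG1_MYC, 80702 to 88714 in AEG1, 67580.2 to 84992 in MYC and 103798 to 115481 in WT livers. In this sum each library of the 3 transgenic genotypes lay below WT. Gene by gene, 2, 4 and 2 of the 7 lay wholly below WT in AEG1, MYC and AEG1_MYC livers. The shares over all genes were 5.53%, 6.09% and 9.65% in that order. AEG1_MYC replicate 2 stood apart: it held the highest value of the 12 libraries for 23.2% of all tested genes and the lowest for 24.5%.

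In AEG1_MYC against WT livers, reads of several mu and alpha class transferases, of Gstp2 and of the reductases Nqo1 and Cbr3 stood higher, most of all Gstm3 with a log2 fold change of 3.30 ± 0.71, while Mgst1, the most abundant transferase per length, stood lower. None of the 33 members was called, where 36 of all 13684 genes (0.263%) were. Unadjusted p was under 0.05 for 12 members, 11 of them higher in AEG1_MYC, beside 17.2% of all tested genes. In 7 members every AEG1_MYC library lay above every WT library and in 3 every one lay below, beside 9.81% and 9.65% of all genes. The log2 fold change was positive for 19 members, beside 51.6% of all genes, and its median was 0.29 over the 33 members, 0.37 over the 21 tested transferases and 0.01 over all genes. DESeq2, run as an alternative, called 8 members, beside 2.89% of the 22609 genes entered. They were Gstm3, Cbr3, Gstm2, Gsta2, Gstp2, Nqo1, Gsta1 and Gpx2, all higher in AEG1_MYC. Gpx2 failed edgeR's filter and had most of its reads in the AEG1_MYC livers. Only 18170 of the 22609 genes had any read, so DESeq2 shares are not like those over the 13684 tested genes. Without AEG1_MYC replicate 3, edgeR called Gstm3, Cbr3, Gstm2, Nqo1 and Gpx2, beside 4.95% of 13891 genes. That replicate was the lowest AEG1_MYC library for each of them, and without replicate 1 or 2 instead 0 members were called. Gpx2 failed the filter with all libraries and entered that fit only through the AEG1_MYC livers where it was high. In whole liver, a larger share of cells that express a gene and more of its RNA in each cell cannot be told apart.

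**Figure D1:**
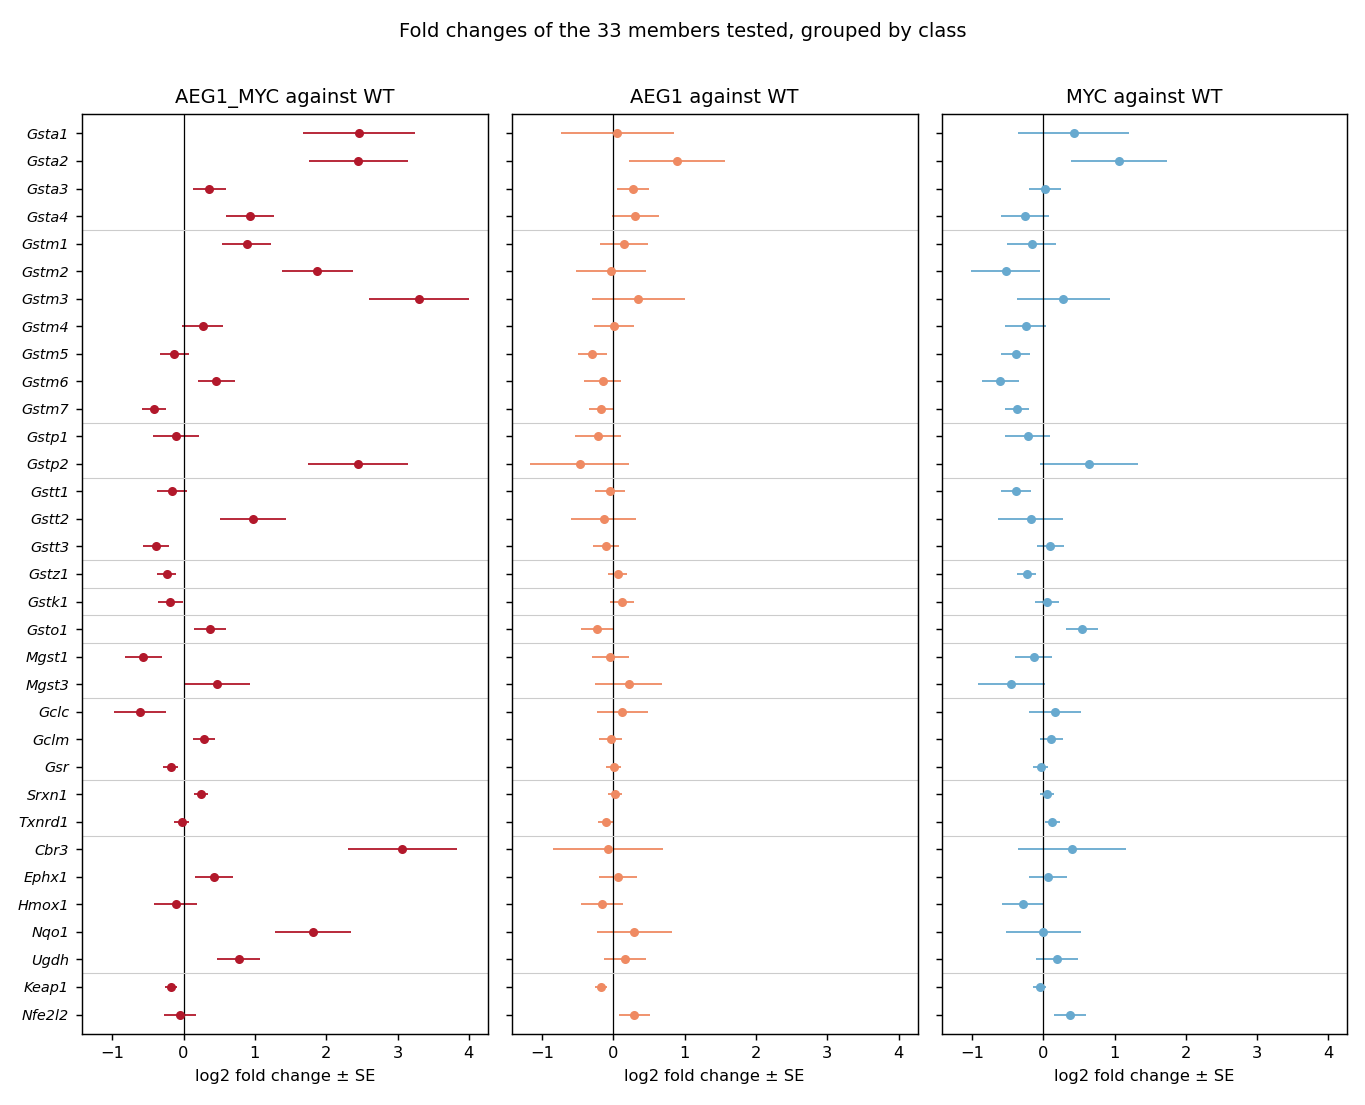
Log2 fold change ± SE of the 33 tested members in AEG1_MYC, AEG1 and MYC livers against WT livers (3 mice each), with grey lines between classes. In AEG1_MYC livers Gstm3 and Cbr3 lie above 3 on this log2 scale and Gsta1, Gsta2 and Gstp2 above 2, with wide errors, while no member lies above 2 in AEG1 or MYC livers.

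Gstm3, a mu class enzyme, had 320.1, 922 and 133 CPM in AEG1_MYC livers, 60.6, 62.0 and 55.4 CPM in AEG1 livers, 25.6, 110.1 and 34.3 CPM in MYC livers and 37.8, 51.5 and 50.3 CPM in WT livers. All 3 AEG1_MYC libraries lay above the other 9, and replicate 2 lay far above replicates 1 and 3. The AEG1 libraries also all lay above WT, by little (0.35 ± 0.65). The spread behind this SE was estimated over all 12 libraries, so it includes the wide spread of the AEG1_MYC and MYC livers. The log2 fold change against WT was 3.30 ± 0.71 (adjusted p = 0.0934), the lowest adjusted p of any member in that comparison. Without AEG1_MYC replicate 2 it was 2.28, and with only replicate 3 kept in that group 1.52.

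Gstm2 stood higher in the same libraries, at 105, 283 and 65.9 CPM in AEG1_MYC, 40.3, 40.2 and 40.5 CPM in AEG1, 19.4, 46.1 and 20.4 CPM in MYC and 33.7, 38.4 and 51.8 CPM in WT livers (1.87 ± 0.50 against WT, adjusted p = 0.135). Its AEG1_MYC libraries did not overlap any other group. Gstm1, the most abundant mu class gene per length, had 760.0, 1943 and 701 CPM in AEG1_MYC and 593, 653 and 594 CPM in WT livers (0.89 ± 0.34, adjusted p = 0.228). The AEG1_MYC libraries again all lay above WT, though replicates 1 and 3 by little. Gstm6 had 111, 210.4 and 119 CPM in AEG1_MYC and 115, 87.6 and 117 CPM in WT livers, where the groups overlapped (0.46 ± 0.26). Gstm7 stood lower, at 37.3, 58.6 and 52.2 CPM in AEG1_MYC and 66.1, 65.2 and 66.1 CPM in WT livers with no overlap (-0.42 ± 0.17, adjusted p = 0.252). Its WT values were the most even of any member. Gstm4 (0.27 ± 0.29) and Gstm5 (-0.13 ± 0.21) overlapped WT, and their sign turned when 1 AEG1_MYC library was left out: Gstm4 was -0.28 without replicate 2 and Gstm5 was 0.0570 without replicate 3.

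**Figure D2:**
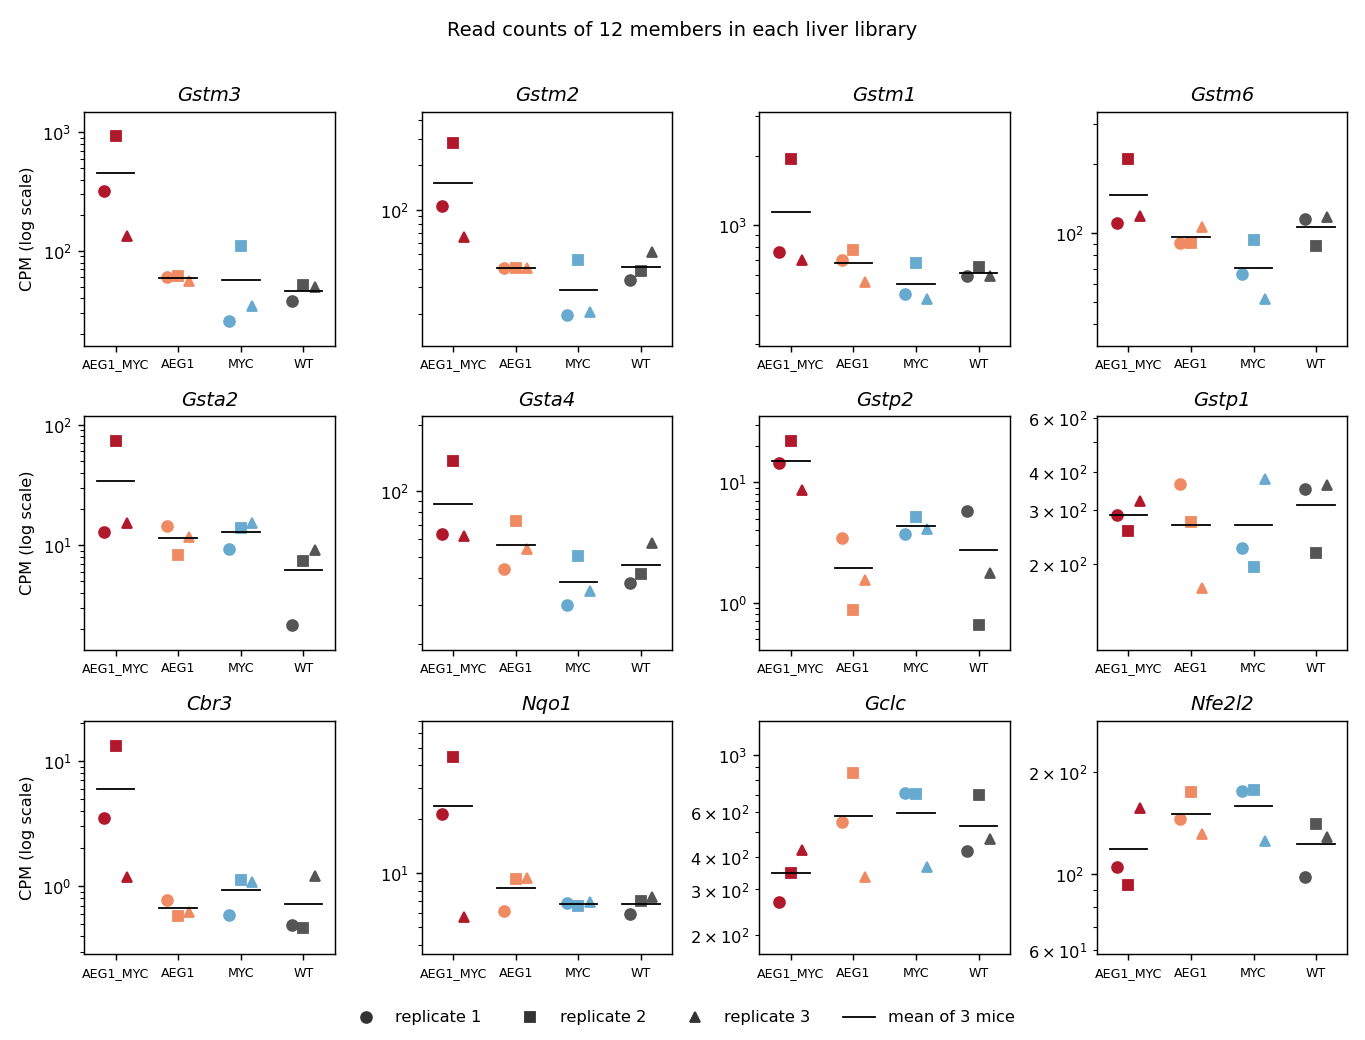
CPM (log scale) of 12 members in each of the 12 libraries, with AEG1_MYC, AEG1, MYC and WT livers from left to right and a bar at the mean of 3 mice. AEG1_MYC replicate 2 (squares) is the highest library for the 4 mu class genes, Gsta2, Gsta4, Gstp2, Cbr3 and Nqo1, while Gstp1, Gclc and Nfe2l2 overlap between all groups.

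The 7 mu class genes lie in 1 run on chromosome 3, with no other protein-coding RefSeq gene and 5 non-coding ones between them. In the order Gstm5, Gstm7, Gstm6, Gstm3, Gstm2, Gstm1, Gstm4, the log2 fold changes in AEG1_MYC against WT were -0.13 ± 0.21, -0.42 ± 0.17, 0.46 ± 0.26, 3.30 ± 0.71, 1.87 ± 0.50, 0.89 ± 0.34 and 0.27 ± 0.29. The values were thus highest at Gstm3, in the middle of the run, and lower on both sides, with the lowest at Gstm7 rather than at an end. Each AEG1_MYC library on its own had its largest ratio to the WT mean at Gstm3 (6.88, 19.8 and 2.85), followed by Gstm2 (2.55, 6.85 and 1.59). Mu class transcripts share sequence: 28.8% of the 50-base windows of the Gstm3 transcript also occur in another gene, as do 23.1% for Gstm1, 11.5% for Gstm6 and 9.36% for Gstm2, while none do for Gstm4, Gstm5 and Gstm7. Counts of the sharing genes are therefore uncertain.

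**Figure D3:**
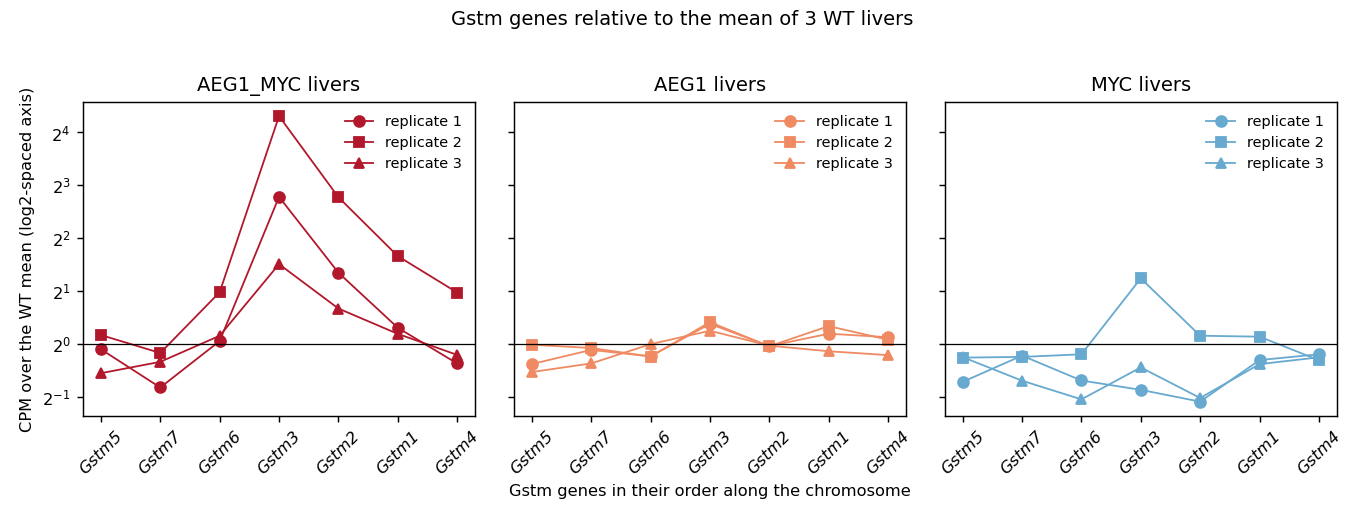
CPM of the 7 Gstm genes divided by the mean of the 3 WT livers (log2-spaced axis), in their order along the chromosome, with 1 line per library for AEG1_MYC, AEG1 and MYC livers. All 3 AEG1_MYC lines peak at Gstm3 (6.88, 19.8 and 2.85) and are lower on both sides. In replicates 1 and 2 the line rises again from Gstm7 (0.566 and 0.890) to Gstm5 at the end (0.935 and 1.13). The AEG1 lines lie between 0.693 (Gstm5, replicate 3) and 1.33 (Gstm3, replicate 2). The MYC lines lie between 0.471 (Gstm2, replicate 1) and 2.37 (Gstm3, replicate 2).

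Promoter windows of 250 bases before the annotated start (RefSeq, build GRCm38.p6) were searched on both strands for the core of the antioxidant response element, TGACNNNGC, for a TCF/LEF word (CTTTGAA or CTTTGAT), the element of the Wnt pathway that marks pericentral hepatocytes, and for the MYC E-box CACGTG. Of the 36 members, 31 had at least 1 window and some had several, 42 windows in all. The antioxidant core was found in 8 of these 42 windows (19.0%), those of Gsta3, Gstm5, Gstm7, Gclm, Ugdh, Mgst1, Txnrd1 and Nfe2l2, and in 10.2% of 32851 windows of all genes. The TCF/LEF word was in 2 of the 42 (Gstm3 and Txnrd1) and in 7.48% of all windows, and the E-box in 0 of the 42 and in 6.02% of all windows. Txnrd1 alone held more than 1 of them, and a match describes letters only. Windows are shown for the mu class genes with the largest differences and for a pair of NRF2 targets that hold the antioxidant core, 5′ to 3′ on the gene's strand. Capitals mark the TCF/LEF word, read on the opposite strand, in Gstm3 (chr3:107969175-107969424, minus strand) and the antioxidant core in Gclm (chr3:122245307-122245556, plus strand) and Ugdh (chr5:65435843-65436092, minus strand), while Gstm2 (chr3:107986421-107986670, minus strand) held none of the words.
Gstm3: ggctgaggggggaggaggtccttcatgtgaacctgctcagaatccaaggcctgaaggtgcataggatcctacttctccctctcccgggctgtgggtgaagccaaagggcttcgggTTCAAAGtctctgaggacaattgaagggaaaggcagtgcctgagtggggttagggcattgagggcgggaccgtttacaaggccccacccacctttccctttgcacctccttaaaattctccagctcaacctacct
Gstm2: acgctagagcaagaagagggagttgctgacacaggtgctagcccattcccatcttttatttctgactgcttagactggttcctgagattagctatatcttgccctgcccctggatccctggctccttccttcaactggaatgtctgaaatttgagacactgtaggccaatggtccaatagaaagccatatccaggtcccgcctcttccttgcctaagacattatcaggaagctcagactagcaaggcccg
Gclm: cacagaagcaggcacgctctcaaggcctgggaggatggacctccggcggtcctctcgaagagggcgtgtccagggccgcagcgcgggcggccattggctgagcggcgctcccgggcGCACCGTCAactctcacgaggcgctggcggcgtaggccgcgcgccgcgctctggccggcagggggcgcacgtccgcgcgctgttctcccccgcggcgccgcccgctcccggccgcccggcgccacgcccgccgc
Ugdh: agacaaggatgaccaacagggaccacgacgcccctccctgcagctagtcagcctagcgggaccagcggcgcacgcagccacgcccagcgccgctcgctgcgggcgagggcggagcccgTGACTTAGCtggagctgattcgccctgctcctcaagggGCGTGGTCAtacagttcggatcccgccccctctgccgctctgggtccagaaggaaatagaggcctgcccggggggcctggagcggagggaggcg
Neither Gstm3 nor Gstm2 holds the antioxidant core in these letters. Elements farther away and other spellings were not searched, such as TGAGTCAGC, which the windows of Srxn1, Gstp1 and Gstp2 hold.

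All 4 alpha class genes had a positive log2 fold change in AEG1_MYC against WT livers. Gsta2 had 12.95, 73.2 and 15.3 CPM in AEG1_MYC, 14.4, 8.25 and 11.7 CPM in AEG1, 9.33, 13.9 and 15.3 CPM in MYC and 2.17, 7.39 and 9.14 CPM in WT livers. The AEG1_MYC libraries all lay above WT, but only replicate 2 lay above every AEG1 and MYC library as well, since replicate 3 lay just under MYC replicate 3. The log2 fold change was 2.45 ± 0.69 (adjusted p = 0.148), and 1.19 without AEG1_MYC replicate 2. Gsta1, scarce in every liver, had 1.06, 9.36 and 1.77 CPM in AEG1_MYC and 0.305, 0.574 and 1.37 CPM in WT livers (2.46 ± 0.79, adjusted p = 0.176), and the groups overlapped. Most of its transcript is shared with Gsta2 and close copies (89.7% of windows for Gsta1, 64.2% for Gsta2), so reads of this pair are uncertain. Gsta4, whose enzyme favours the lipid peroxidation product hydroxynonenal, shares no window with another gene. It had 63.6, 137 and 62.0 CPM in AEG1_MYC and 38.0, 41.7 and 57.7 CPM in WT livers, with no overlap (0.93 ± 0.33, adjusted p = 0.203). Gsta3, the most abundant alpha class gene per length, had 2047, 2782 and 1841 CPM in AEG1_MYC and 1493, 1877 and 1820.4 CPM in WT livers (0.36 ± 0.23), and its groups overlapped.

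The pi class pair differed from each other. Gstp2 had 14.4, 22.0 and 8.64 CPM in AEG1_MYC, 3.46, 0.874 and 1.56 CPM in AEG1, 3.70, 5.13 and 4.11 CPM in MYC and 5.80, 0.651 and 1.75 CPM in WT livers, so that every AEG1_MYC library lay above the other 9 (2.44 ± 0.70 against WT, adjusted p = 0.154). Gstp1, the more abundant per length and a gene long used as a marker of early liver lesions in the rat, had 289, 257 and 321 CPM in AEG1_MYC, 365, 273 and 167 CPM in AEG1, 225, 196 and 380.4 CPM in MYC and 352, 217 and 363 CPM in WT livers. Its groups overlapped throughout (-0.11 ± 0.32, adjusted p = 0.885). The pair share most of their transcripts (72.6% of windows for Gstp2, 62.3% for Gstp1), so uniquely counted reads cover only part of each and both values are uncertain.

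Of the remaining classes, Mgst1 stood lower and the others overlapped or differed little. Mgst1, a microsomal transferase of the endoplasmic reticulum and mitochondrial outer membrane, had 3112, 1425 and 3183 CPM in AEG1_MYC and 3414, 3907 and 4074 CPM in WT livers without overlap (-0.56 ± 0.26, adjusted p = 0.298), with replicate 2 the lowest. Gstt2, of the theta class, had 49.8, 159.7 and 97.1 CPM in AEG1_MYC and 45.4, 43.6 and 68.0 CPM in WT livers (0.97 ± 0.46). Gstz1, which is also the maleylacetoacetate isomerase of tyrosine breakdown, had 856, 697 and 809 CPM in AEG1_MYC and 874, 897 and 1013 CPM in WT livers, each AEG1_MYC library below each WT library by a small margin. Gstt1, Gstt3, Gstk1, Gsto1 and Mgst3 overlapped WT.

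Summed over all 23 transferases, reads came to 8222, 9669 and 7953 CPM in AEG1_MYC and 7603, 8542 and 8829.5 CPM in WT livers, so the total overlapped while its makeup differed. The mu class took 17.1, 37.1 and 14.5% of transferase reads in AEG1_MYC livers, against 12.4, 11.7 and 10.9% in WT livers. Mgst1 took 37.8, 14.7 and 40.0% in AEG1_MYC and 44.9, 45.7 and 46.1% in WT livers. Within the mu class, Gstm3 made up 22.7, 25.7 and 11.5% of reads in AEG1_MYC and 4.02, 5.17 and 5.20% in WT livers. In AEG1_MYC replicate 2 the mu class thus held the largest class share, whereas Mgst1 alone exceeded it in the other 11 libraries. Per length of the longest coding transcript (CPM per kb), Mgst1 was the highest member in both genotypes, at 2205 ± 853 in AEG1_MYC and 3255 ± 294 in WT livers (SD, n = 3). Gsta3 was second in both. Gstm3 ranked 6 of 36 in AEG1_MYC livers (349.6 ± 315 CPM per kb) and 19 in WT livers (35.5 ± 5.77 CPM per kb).

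**Figure D4:**
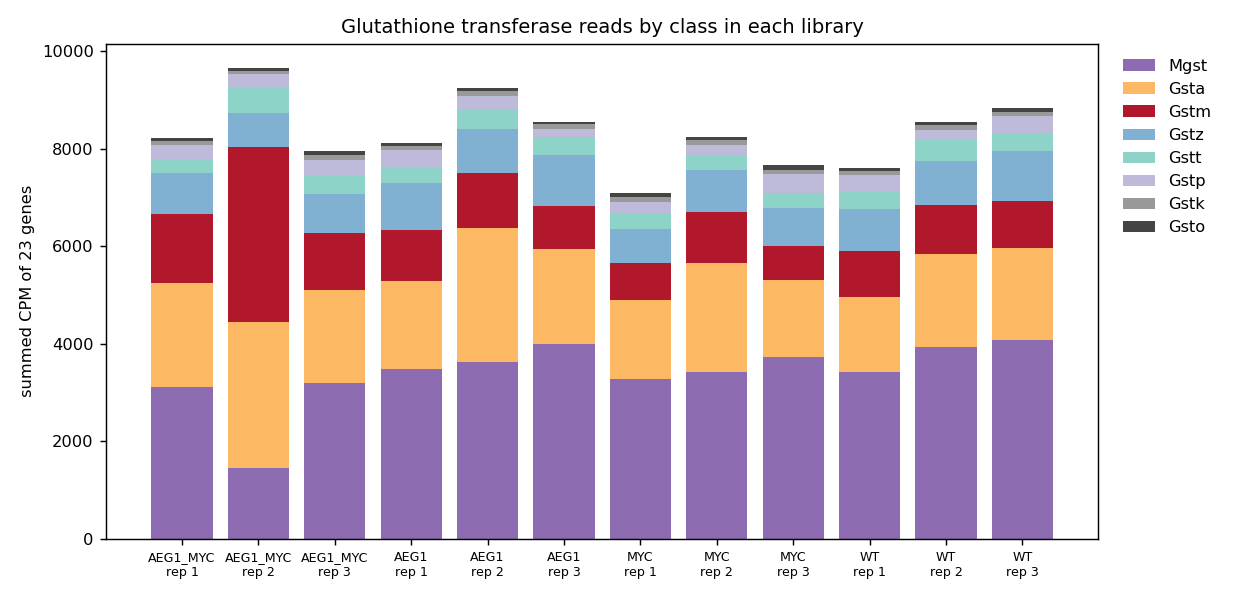
Summed CPM of the 23 glutathione transferases by class in each library, AEG1_MYC, AEG1, MYC and WT livers from left to right. The total overlaps between genotypes, and the mu class (red) makes up 37.1% of it in AEG1_MYC replicate 2, against 10.9% to 12.4% in WT livers.

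Among the tested enzymes outside the transferase families, the largest log2 fold changes were those of a pair of reductases, though both overlapped WT. Nqo1, a quinone reductase and a standard NRF2 target, had 21.5, 44.2 and 5.68 CPM in AEG1_MYC, 6.13, 9.27 and 9.44 CPM in AEG1, 6.80, 6.55 and 6.96 CPM in MYC and 5.95, 7.01 and 7.35 CPM in WT livers. AEG1_MYC replicates 1 and 2 were the highest of the 12 libraries and replicate 3 was the lowest (1.81 ± 0.54 against WT, adjusted p = 0.161). With replicates 1 and 2 both left out, the log2 fold change turned to -0.25. Cbr3, a carbonyl reductase at low levels, had 3.502, 13.1 and 1.19 CPM in AEG1_MYC, 0.781, 0.582 and 0.628 CPM in AEG1, 0.587, 1.11 and 1.08 CPM in MYC and 0.488, 0.459 and 1.20 CPM in WT livers (3.07 ± 0.76, adjusted p = 0.122). For Cbr3, AEG1_MYC replicate 3 lay within the WT range. Without AEG1_MYC replicate 2 the value was 1.73. Ugdh, which makes the UDP-glucuronate used for glucuronidation, had 266, 719.6 and 327 CPM in AEG1_MYC and 226, 273 and 271 CPM in WT livers (0.77 ± 0.30), a difference of 0.21 without replicate 2. Hmox1, the inducible heme oxygenase, had 24.8, 27.9 and 19.2 CPM in AEG1_MYC and 38.9, 23.1 and 15.6 CPM in WT livers. Ephx1, the microsomal epoxide hydrolase, had 336, 737 and 409 CPM in AEG1_MYC and 277, 428 and 397 CPM in WT livers, and both genes overlapped between the groups.

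Gclc, Gclm and Gsr, of glutathione synthesis and recycling, overlapped between AEG1_MYC and WT livers. Gclc, the catalytic subunit of glutamate-cysteine ligase and the rate-limiting step of glutathione synthesis, had 269, 347 and 427 CPM in AEG1_MYC, 549, 850.3 and 336 CPM in AEG1, 710.0, 707 and 368 CPM in MYC and 422, 699 and 471 CPM in WT livers (-0.61 ± 0.36 against WT, adjusted p = 0.402). The spread within AEG1, MYC and WT livers was wide. Gclm, the modifier subunit, had 168, 265 and 191 CPM in AEG1_MYC and 160.1, 174 and 178 CPM in WT livers (0.29 ± 0.16). Gsr, which reduces oxidized glutathione, had 76.4, 82.7 and 85.3 CPM in AEG1_MYC and 91.1, 105 and 80.8 CPM in WT livers. Gpx2, a glutathione peroxidase better known from the gut, had 27, 54 and 7 reads in AEG1_MYC livers, 0, 0 and 3 in AEG1, 3, 1 and 11 in MYC and 1, 0 and 1 in WT livers. It did not pass the filter, and MYC replicate 3 lay above AEG1_MYC replicate 3. On the thioredoxin side, Srxn1, which repairs overoxidized peroxiredoxins, had 72.0, 74.3 and 74.3 CPM in AEG1_MYC and 59.3, 64.5 and 63.1 CPM in WT livers, a small difference without overlap (0.24 ± 0.10, adjusted p = 0.248), whereas Txnrd1, a thioredoxin reductase, overlapped.

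The regulators themselves showed no difference past the test. Nfe2l2 had 105, 93.2 and 157 CPM in AEG1_MYC, 146, 174 and 131 CPM in AEG1, 176, 177 and 125 CPM in MYC and 98.4, 141 and 129 CPM in WT livers (-0.05 ± 0.22 for AEG1_MYC against WT, adjusted p = 0.921). AEG1_MYC replicate 2, with the most transferase reads, had the lowest Nfe2l2 level of the 12 libraries. The sign of this difference turned when WT replicate 2 or AEG1_MYC replicate 1 or 2 was left out, with values of 0.0545, 0.0399 and 0.0941 in that order. Keap1 had 66.8, 70.1 and 78.8 CPM in AEG1_MYC, 70.7, 76.2 and 69.2 CPM in AEG1, 78.5, 79.6 and 77.7 CPM in MYC and 80.5, 87.1 and 76.4 CPM in WT livers (-0.18 ± 0.09 for AEG1_MYC against WT). RNA levels do not measure the KEAP1-held pool or the nuclear amount of NRF2 protein.

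Against AEG1 livers, which carry 1 of the 2 transgenes, AEG1_MYC livers again stood higher for Gstm3, Gstm2, Cbr3 and Gstp2. Of the 33 members 0 were called by edgeR, beside 0.322% of all genes. Unadjusted p was under 0.05 for 11 members, beside 17.4% of all genes, 23 values were positive beside 51.1%, and DESeq2 called 6 members, Gpx2 among them, beside 3.14% of all genes. In 7 members the AEG1_MYC libraries all lay above AEG1 and in 3 all below (9.60% and 8.24% of all genes). The lowest adjusted p values were those of Gstm3 (2.95 ± 0.70, adjusted p = 0.1003), Cbr3 (3.15 ± 0.76, adjusted p = 0.101), Gstp2 (2.91 ± 0.72, adjusted p = 0.107), Gstm2 (1.91 ± 0.50, adjusted p = 0.118) and Gsta1 (2.41 ± 0.78, adjusted p = 0.171). Without AEG1_MYC replicate 3, edgeR called 6 members here beside 4.54% of all genes, and that replicate was the lowest of its group for each. Among them were Gpx2, which again entered only through the AEG1_MYC livers, and Nqo1, which stood at 1.52 ± 0.53 with all libraries. Gstz1 stood lower in AEG1_MYC than in AEG1 livers (-0.30 ± 0.13, adjusted p = 0.275).

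Against MYC livers, again 0 of 33 members were called by edgeR, beside 0.205% of all genes. Unadjusted p was under 0.05 for 11 members and 15.2% of all genes, 22 values were positive beside 51.3%, and DESeq2 called 6 members beside 1.94% of all genes. In 9 members all AEG1_MYC libraries lay above MYC and in 3 all below (9.64% and 8.85% of all genes), and those above included 4 of the 7 mu class genes. The lowest adjusted p values were those of Gstm2 (2.40 ± 0.51, adjusted p = 0.113), Gstm3 (3.02 ± 0.70, adjusted p = 0.130), Gstm6 (1.06 ± 0.27, adjusted p = 0.154), Cbr3 (2.67 ± 0.74, adjusted p = 0.179) and Gsta4 (1.19 ± 0.34, adjusted p = 0.189). Without AEG1_MYC replicate 3, edgeR called 4 (Gstm2, Gstm3, Cbr3 and Nqo1), beside 3.24% of all genes. That replicate was again the lowest of its group for each. The 3 comparisons share the AEG1_MYC libraries and are not independent of each other.

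The interaction asks whether the difference between AEG1_MYC and MYC livers exceeds that between AEG1 and WT livers on the log2 scale. It was positive for 25 of the 33 members and for all 7 mu class genes, beside 51.1% of all tested genes. None was called by edgeR (0.0219% of all genes were), unadjusted p was under 0.05 for 6 members beside 9.25% of all genes, and DESeq2 called 1, Gstm2, beside 0.646% of all genes. The Gstm2 interaction was 2.44 ± 0.70 (adjusted p = 0.370), that of Gstm6 1.21 ± 0.38, that of Gstm3 2.66 ± 0.93 and that of Cbr3 2.75 ± 1.06. Nfe2l2 had the opposite sign, at -0.72 ± 0.31 (unadjusted p = 0.0413, adjusted p = 0.520): both single transgenic groups averaged above WT and AEG1_MYC livers did not.

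With either transgene alone no member passed the test against WT. In AEG1 against WT livers, 0 of 33 members were called by edgeR or DESeq2 and 0 of 33 had an unadjusted p under 0.05, where edgeR called 0% of all genes, DESeq2 called 0.0663% and 3.92% had such a p. The median log2 fold change was 0.01, and 17 of 33 values were positive, beside 49.7% of all genes. The 5 members with the lowest p were Keap1, Gstm5, Nfe2l2, Gsta2 and Gsta3. Keap1 was lower in each AEG1 library than in each WT library (-0.17 ± 0.09, unadjusted p = 0.0729). Gstm5 had 9.12, 11.7 and 8.21 CPM in AEG1 and 12.3, 12.1 and 11.1 CPM in WT livers (-0.29 ± 0.21), Nfe2l2 differed by 0.29 ± 0.22, and Gsta2 by 0.89 ± 0.67, where WT replicate 1 alone was far lower than the other WT livers. Gsta3 had 1742, 2668 and 1881 CPM in AEG1 livers (0.28 ± 0.23). In 2 members AEG1 lay wholly above WT and in 2 wholly below, beside 5.16% and 5.53% of all genes.

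In MYC against WT livers, 0 of 33 members were called by edgeR or DESeq2, where edgeR called 0% and DESeq2 0.124% of all genes. Unadjusted p was under 0.05 for 2 members, beside 3.47% of all genes, and 17 of 33 values were positive, beside 49.4%. Gsto1, an omega class enzyme with thiol transferase activity, had 82.0, 76.6 and 87.2 CPM in MYC and 48.0, 47.8 and 72.3 CPM in WT livers, all MYC libraries above WT (0.55 ± 0.22, unadjusted p = 0.0317). Its AEG1_MYC libraries, at 51.9, 77.3 and 88.5 CPM, overlapped WT. The mu class stood on the lower side, with 6 of 7 genes negative and a median log2 fold change of -0.37. Gstm6 had 66.2, 93.3 and 51.7 CPM in MYC livers (-0.60 ± 0.27, unadjusted p = 0.0461) and overlapped WT through MYC replicate 2. Gstm7 had 56.6, 55.6 and 40.7 CPM (-0.37 ± 0.17), Gstm5 7.22, 9.92 and 9.99 CPM (-0.39 ± 0.21) and Gstt1, of the theta class, 217, 208 and 175 CPM against 248, 311 and 223 CPM in WT livers (-0.38 ± 0.21), each wholly below WT. In all, 2 members lay wholly above WT and 5 wholly below, beside 5.47% and 6.09% of all genes. MYC replicate 2 departed from the other MYC livers at Gstm3, with 25.6, 110.1 and 34.3 CPM over the 3 replicates.

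A list of 52 other genes of glutathione and NRF2 biology held 50 tested genes. In AEG1_MYC against WT livers 1 of them passed the test, Abcc4, an efflux pump for conjugated organic anions. It rose in AEG1_MYC livers, at 53.6, 67.7 and 15.5 CPM against 2.26, 1.99 and 2.56 CPM in WT livers (4.33 ± 0.51, adjusted p = 0.00869), and likewise against AEG1 (3.75 ± 0.49, adjusted p = 0.0147) and against MYC livers (3.86 ± 0.49, adjusted p = 0.0129), and no other gene of the list passed in any comparison. The call against WT was lost with any 1 WT library left out (adjusted p = 0.0651, 0.0870 and 0.0592 without WT replicates 1, 2 and 3), while its log2 fold change stayed between 3.93 and 4.75 with any 1 library left out. The call against AEG1 was lost without AEG1 replicate 1 or 2 (adjusted p = 0.138 and 0.109), and that against MYC without any 1 MYC library (adjusted p = 0.125, 0.0843 and 0.123 without replicates 1, 2 and 3). Over the whole list 14 genes had an unadjusted p under 0.05 against WT, 10 of them higher in AEG1_MYC, beside 17.2% of all tested genes, and the median log2 fold change was 0.04.

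The next lowest p values in that list were those of Cyp2a5, a coumarin hydroxylase of pericentral hepatocytes that is known to respond to NRF2, and Blvrb, a biliverdin reductase. Cyp2a5 had 1624, 2544 and 1002 CPM in AEG1_MYC and 219, 96.6 and 321 CPM in WT livers (3.02 ± 0.57, adjusted p = 0.0704). Blvrb had 147, 246 and 114 CPM in AEG1_MYC and 83.1, 66.8 and 75.6 CPM in WT livers (1.17 ± 0.24, adjusted p = 0.0895). Neither overlapped WT. Of the small MAF partners of NRF2, named after their values were seen, Mafg had 70.2, 76.7 and 70.7 CPM in AEG1_MYC and 48.7, 43.3 and 54.9 CPM in WT livers (0.57 ± 0.12, adjusted p = 0.0921), and Maff 19.6, 43.1 and 14.1 CPM against 4.79, 3.79 and 3.80 CPM (2.63 ± 0.71, adjusted p = 0.136). Both stood above WT in each AEG1_MYC library, though AEG1 replicate 3 had Maff at 17.0 CPM, above AEG1_MYC replicate 3. The third partner, Mafk, overlapped WT, with 24.8, 40.2 and 32.0 CPM in AEG1_MYC and 27.5, 18.8 and 28.1 CPM in WT livers (0.38 ± 0.25, adjusted p = 0.444). In AEG1 against WT livers the lowest p values were those of Gss, the glutathione synthetase (-0.38 ± 0.14), Blvra (-0.37 ± 0.15) and the glycine carrier Slc6a9 (-0.52 ± 0.25), and in MYC against WT livers those of Blvra (-0.37 ± 0.15), the pentose phosphate enzyme Taldo1 (-0.24 ± 0.13) and the peroxidase Gpx1 (0.29 ± 0.17), none of them past the test.

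Markers of pericentral hepatocytes stood apart in the same libraries. All 10 stood higher in AEG1_MYC than in WT livers, beside 51.6% of all genes, and 2 of them (Slc1a2 and Rhbg) passed the test. Their summed level was 15791, 38565 and 18362 CPM in AEG1_MYC livers, against 13617, 9863 and 10594 CPM in WT livers. Glul, glutamine synthetase of the innermost pericentral layer, had 3064, 15863 and 3070.5 CPM in AEG1_MYC and 1427, 734 and 685 CPM in WT livers. The 7 periportal markers summed to 3630.3, 728 and 4684 CPM in AEG1_MYC and 3685, 5929 and 5598 CPM in WT livers. Of these 7, 6 stood lower than in WT livers and 1 higher, with a median log2 fold change of -0.28, and 0 were called. All 7 overlapped WT, with 0 wholly below it, beside 9.65% of all genes. The periportal Cyp2f2 was at 508, 2.70 and 1039 CPM in AEG1_MYC and 690.1, 1598 and 1365 CPM in WT livers. By summed level, AEG1_MYC replicate 2 was the highest library for the pericentral markers and the lowest for the periportal ones. It was also the highest of all 12 for 18 of the 33 tested members, beside 23.2% of all tested genes. AEG1_MYC replicate 3, with Glul as high as replicate 1, had Nqo1 at the lowest level of any library. The part of the pericentral markers in the member values was not tested.

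**Figure D5:**
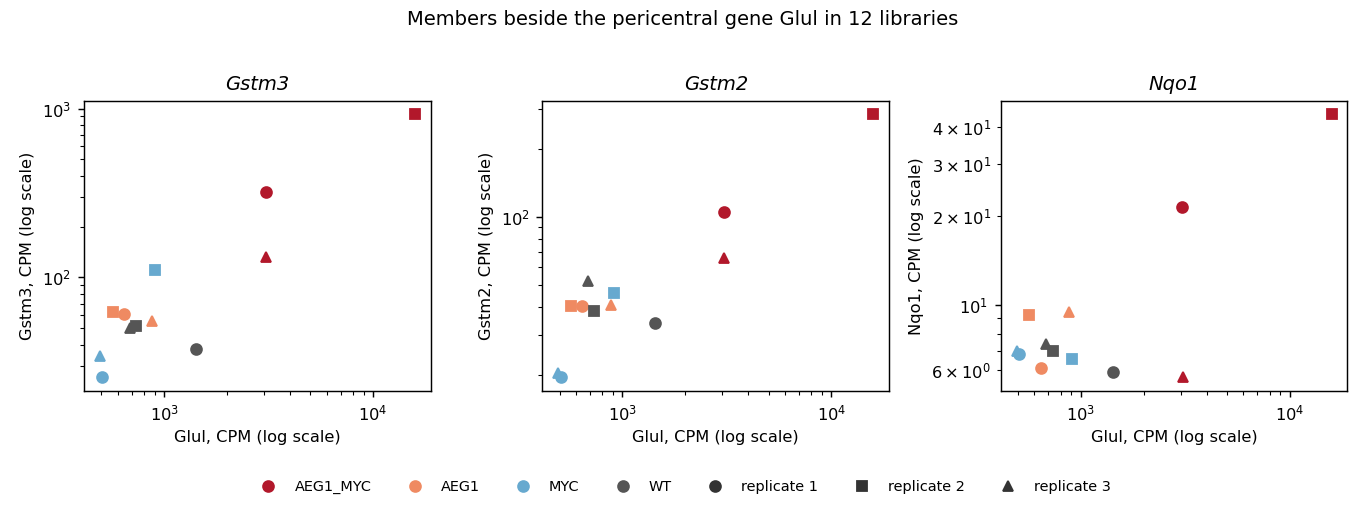
CPM of Gstm3, Gstm2 and Nqo1 against CPM of the pericentral gene Glul in the 12 libraries (both axes log scale), with colours for genotype and symbols for replicate. The 3 AEG1_MYC libraries have the highest Glul and the highest Gstm3 and Gstm2, while for Nqo1 AEG1_MYC replicate 3 lies below all other libraries.

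Marker sums of other cell types overlapped between AEG1_MYC and WT livers, except that of stellate cells. The 6 Kupffer cell markers summed to 876, 239 and 430.0 CPM in AEG1_MYC and 736, 359 and 498 CPM in WT livers, and the 5 neutrophil markers to 66.4, 2.43 and 0.610 CPM in AEG1_MYC and 3.93, 0.651 and 0.427 CPM in WT livers, high in AEG1_MYC replicate 1 alone. Markers of bile duct summed to 72.5, 28.3 and 36.7 CPM in AEG1_MYC and 42.1, 75.7 and 53.9 CPM in WT livers, of endothelium to 254, 279 and 228 CPM and 287, 228 and 214 CPM in the same order, and of stellate cells to 238, 181 and 258 CPM and 291, 361 and 319.9 CPM, each AEG1_MYC library below WT. Lymphocyte and erythroid sums overlapped as well, and 3 of the 5 erythroid markers had 0 counts in every library. Their part in the member values was not tested. Against the WT range, 10, 20 and 14 of the 33 members lay above the highest WT liver in AEG1_MYC replicates 1, 2 and 3, beside 32.8%, 35.6% and 26.1% of all genes, and 9, 8 and 7 lay below the lowest, beside 31.6%, 37.15% and 25.95%.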

How the data were processed

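The authors deposited raw read counts per gene, 1 table for each of 12 mouse liver libraries. CASAVA 1.8.2 made the base calls, TopHat2 2.0.7 aligned reads to mm9 and HTSeq counted them, per the submitters' processing notes. The annotation and the strandedness of counting are not given in the sources used here. Reads of genes that overlap, on the same or the opposite strand, may therefore be mixed. Alignments at several places, 46.5% to 58.0% of the values in the tables, stayed out of the counts, as did the 5 summary lines.

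Counts were filtered with filterByExpr, scaled by TMM and fitted with edgeR 4.0.16 in R 4.3.3, with 1 coefficient per genotype over all 12 libraries, and tested with its robust two-sided quasi-likelihood F test in 6 contrasts. Each SE is the absolute log2 fold change over the square root of F. It rests on a spread estimated over all 12 libraries, so it also carries the spread of genotypes outside the comparison. Replicates are mice, numbered here in order of deposit. Lengths and shared 50-base windows came from GENCODE M21 transcripts, promoters from RefSeq. The fit was also run on simulated counts drawn with the same spread in all genotypes, so unequal spread between genotypes was not tested.

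Library values are given for the 5 members with the lowest p in each contrast against WT, for some of them not in every genotype. Nfe2l2, Keap1, Nqo1, Gclc and Gstp1 have them in all 4 genotypes. Pathway genes called or among the 3 lowest p in AEG1_MYC against WT have values for those livers. Those of the single transgenic contrasts have log2 fold changes ± SE alone. Members and lists were chosen with earlier results of these data known. Alternatives were RLE scaling, no filter, a minimum CPM of 1 in 3 or more libraries, DESeq2 1.42.0, the 6 compared libraries alone, leaving out each library in turn, and leaving out AEG1_MYC replicates 1 and 2 together.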

Additional observations from a re-analysis of the deposited data

How the results depend on the processing

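DESeq2 called 8 members in AEG1_MYC against WT, 6 against AEG1, 6 against MYC and 1 in the interaction. Gpx2, which failed edgeR's filter, is in the counts against WT and against AEG1. Of all genes DESeq2 called 15, 28, 653, 709, 438 and 146 in AEG1, MYC and AEG1_MYC against WT, AEG1_MYC against AEG1, against MYC and in the interaction, where edgeR called 0, 0, 36, 44, 28 and 3. Leaving out each library in turn gave 0 to 5, 0 to 6 and 0 to 4 called members in the 3 AEG1_MYC comparisons, with calls made only without AEG1_MYC replicate 3, and 0 to 1 (MYC against WT), 6 to 687, 4 to 630, 6 to 450 and 1 to 32 (interaction) of all genes. The 6 compared libraries alone gave 2, 2 and 7 called genes in the AEG1_MYC comparisons. With AEG1_MYC replicates 1 and 2 both left out, so that replicate 3 is taken to vary as the other genotypes do, 4, 7 and 3 genes and 1 in the interaction were called. That setting turned Nqo1 to -0.25 against WT, -0.54 against AEG1 and -0.25 against MYC. In AEG1_MYC against WT it also turned Gstm4 to -0.20, Nfe2l2 to 0.36 and Gstp1 to 0.0506. With 1 library left out there, Gstm4 ranged from -0.28 to 0.52, Gstm5 from -0.31 to 0.0570, Nfe2l2 from -0.29 to 0.0941 and Gstp1 from -0.31 to 0.0248. The cause was not tested. RLE scaling and both other filters turned no sign and changed no call among the members. No paired analysis was possible because the labels give the genotypes no shared replicate numbers. Genes at a few CPM, such as Cbr3 and Gsta1, and genes with close copies are limited by depth and by unique counting.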

Other observations

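Of 10 regulators and targets of foreign compound metabolism other than NRF2, 9 stood higher in AEG1_MYC than in WT livers, beside 51.6% of all genes. None passed the test, and the median log2 fold change was 0.42, beside 0.01 over all genes. All 10 overlapped WT, with 0 wholly above it, beside 9.81% of all genes. The pregnane X receptor gene Nr1i2 had 174, 158 and 78.4 CPM in AEG1_MYC and 94.3, 80.6 and 72.0 CPM in WT livers, and the aryl hydrocarbon receptor target Cyp1a2, also a pericentral marker, 1067, 1629 and 854 CPM and 913, 446 and 561 CPM in the same order. Cyp2b10, the defining target of the constitutive androstane receptor, was the exception, at 35.2, 0.207 and 26.6 CPM in AEG1_MYC, 125, 149 and 11.1 CPM in AEG1, 96.2, 109.9 and 20.7 CPM in MYC and 35.2, 63.7 and 33.1 CPM in WT livers. AEG1_MYC replicate 2, the highest library for most transferases, was the lowest for Cyp2b10. The part of these receptors in the member values was not tested.

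Across the 12 libraries, Nfe2l2 levels were set beside those of the 32 other tested members on a log2 scale of CPM plus 0.1, and no relation passed Benjamini-Hochberg adjustment. The closest was Gclc, with Pearson's r = 0.78 (permutation p = 0.00284, adjusted p = 0.0909) and Spearman's rho = 0.80 (adjusted p = 0.0954). The permutation shuffled libraries across genotypes, so it cannot separate differences between genotypes from those among mice of the same genotype. Without the 2 libraries farthest from the median of Nfe2l2, r for Gclc was 0.85, and over the 9 libraries without AEG1_MYC it was 0.78.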
